A study of Mus musculus with 2 samples.

Results

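Complement is a proteolytic cascade of secreted proteins that tags particles for uptake, recruits leukocytes and can open a membrane pore. The 9 genes described here, C1qa, C1qb, C1qc, C1ra, C3, C4b, Cfb, Cfp and Serping1, were taken as a fixed list by name, and all 9 were among the 28692 genes counted. A further 45 complement genes of a fixed list by role were also counted and are summarised by role. Both lists were chosen with earlier results of these data known. The transcripts were measured by single-cell RNA sequencing of the stromal vascular fraction (SVF) of gonadal white adipose tissue (gWAT), which holds stromal, vascular and immune cells and few mature adipocytes. The control library came from male C57BL/6 animals that the labels call littermate wildtype and the study describes as floxed Pgam1 littermates without Cre. The Adipo-Pgam1 KO library came from male C57BL/6 animals with floxed Pgam1 and Adipoq-Cre. Both were 13 weeks old by the labels. Adipoq-Cre is expressed mainly in adipocytes, so most cells measured here are not those in which the gene was targeted. There was 1 library per genotype, the number of mice behind each is not given in the sources used here, and genotype and library therefore cannot be told apart. No p-value was computed, and every interval is a 95% interval that covers counting error only.

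The classical pathway starts when C1q, a bundle of A, B and C chains, binds a target and activates the proteases C1r and C1s, which cleave C4 and C2. The alternative pathway runs through C3, factor B (Cfb) and properdin (Cfp), the latter a protein that holds the C3-cleaving enzyme together. Both pathways meet at C3, and Serping1 encodes the C1 inhibitor, which removes C1r and C1s from the C1 complex. Liver makes much of the circulating complement. Adipose tissue is known as an extrahepatic source, and adipsin (factor D) takes its name from adipocytes.

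The control library held 8522 barcodes and 42859406 unique molecular identifiers (UMIs, each a captured transcript), and the KO library 2730 and 13821581. Barcodes were kept if 500 genes or more were detected and mitochondrial UMIs made up no more than 10%, and these numbered 3881 and 958, with 33124889 and 9710021 UMIs. The libraries shared 9 barcode sequences, and 0 of them were kept in both. After doublet removal 3616 and 937 cells formed 25 clusters, of which 19 took a name from markers and 6 stayed unnamed. No complement gene of the lists was used to cluster or name cells. Levels are given as CPM, the share of a group's UMIs that a gene takes, scaled to 1000000 UMIs. In the kept barcodes Pgam1 was at 110 CPM (106 to 113) in the control against 117 CPM (110 to 124) in the KO library. Over all barcodes it was at 99.3 and 91.5 CPM, and in fibroblast-like cluster 3, led by Cilp and Pi16, at 108 and 84.6 CPM, a log2 ratio of -0.35 (-0.72 to -0.0035). In the other fibroblast-like cluster, cluster 0, it was at 109 and 115 CPM (log2 0.08, -0.14 to 0.30). Fibroblast-like cells as a class had 109 and 105 CPM (log2 -0.04, -0.23 to 0.14). Macrophage-like cells had 142 and 201 CPM (log2 0.50, 0.29 to 0.71). Genotypes were taken from the labels. Depth differed between the libraries: fibroblast-like cells had a median of 12304 UMIs in the control against 17898 in the KO library.

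Positions are given on GRCm38, the assembly of the mm10 build used by the authors, from the GENCODE annotation. C1qb at chr4:136880129-136886187, C1qc at chr4:136889804-136893065 and C1qa at chr4:136895917-136898803 stand side by side on the minus strand. On chromosome 17, C4b (chr17:34728380-34743882), Cfb (chr17:34856374-34862518) and C3 (chr17:57203970-57228136) are on the minus strand. C1ra (chr6:124512405-124523443) is on the plus strand, and Serping1 (chr2:84765387-84775444) and Cfp (chrX:20925454-20931555) are on the minus strand. C4b is nearly identical to C4a, which was not among the genes counted and was not used here. C1ra is similar to C1rb, which had 19 control and 4 KO UMIs in cells. Reads that fit both C1ra and C1rb are not counted. How reads that fit both C4b and C4a were counted was not tested, so the C4b and C1ra levels are uncertain. Cfb lies inside the readthrough gene Gm20547 on the same strand, which had 0 UMIs in either library, and reads that fit both may be missing from Cfb.

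RefSeq start sites (GRCm38.p6) were found for 5 of the 9 genes. The 250 bases before the start are shown for 3 of them, because these genes had different leading cell classes (macrophage-like for C1qb and Cfp, fibroblast-like and mesothelial-like for C3) and a RefSeq start within 13 bases of the GENCODE start. Sequences read 5′ to 3′ on the gene's strand at chr4:136886201-136886450 (C1qb), chr17:57228137-57228386 (C3) and chrX:20931556-20931805 (Cfp), all minus strand. Capitals mark matches to motifs, in either direction.
C1qb: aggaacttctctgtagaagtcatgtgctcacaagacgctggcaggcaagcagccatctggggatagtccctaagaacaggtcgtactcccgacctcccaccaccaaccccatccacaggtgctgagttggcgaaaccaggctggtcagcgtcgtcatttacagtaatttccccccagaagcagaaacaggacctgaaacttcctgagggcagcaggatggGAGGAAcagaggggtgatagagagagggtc
C3: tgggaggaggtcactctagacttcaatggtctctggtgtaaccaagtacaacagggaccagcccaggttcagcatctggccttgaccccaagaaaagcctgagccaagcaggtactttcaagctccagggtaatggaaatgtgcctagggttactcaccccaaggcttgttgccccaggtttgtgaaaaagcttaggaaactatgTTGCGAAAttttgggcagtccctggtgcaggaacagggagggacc
Cfp: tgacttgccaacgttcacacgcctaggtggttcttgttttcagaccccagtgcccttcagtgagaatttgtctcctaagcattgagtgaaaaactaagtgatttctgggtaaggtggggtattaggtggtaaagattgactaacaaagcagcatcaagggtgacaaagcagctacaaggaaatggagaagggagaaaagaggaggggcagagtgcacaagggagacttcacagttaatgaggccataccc
The C1qb window held GAGGAA, the core bound by the myeloid factor PU.1, 30 to 25 bases before the start, a motif found in 23.3% of all 32851 promoter entries. The C3 window held a match to TTGCNNAA, a pattern of C/EBP factors, 45 to 38 bases before the start, as did 9.56% of entries. The windows were also searched for GAAANNGAAA (interferon-stimulated response element, 2.98% of entries), TTCNNNGAA (gamma-activated site, 7.02%), GGGNNTTTCC (kappa B, 1.41%) and TATAAA (12.4%), with no match in these 3 genes. The Cfp window held none of the 6 motifs. A match of letters is a description and shows no binding.

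In control cells the cascade was divided between immune and stromal classes. The C1q chains and properdin were found in macrophage-like cells, whereas C1ra, C3, Cfb and the C1 inhibitor gene Serping1 were found in fibroblast-like and mesothelial-like cells. Macrophage-like cells held 96.3% of the C1qa, 96.1% of the C1qb, 96.5% of the C1qc and 74.97% of the Cfp UMIs of control cells. Fibroblast-like cells held 81.9% of Serping1, 74.2% of C3 and 70.4% of C1ra UMIs, and mesothelial-like cells 57.5% of Cfb UMIs. C4b was split, with 55.3% in macrophage-like and 33.0% in fibroblast-like cells.

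**Figure D1:**
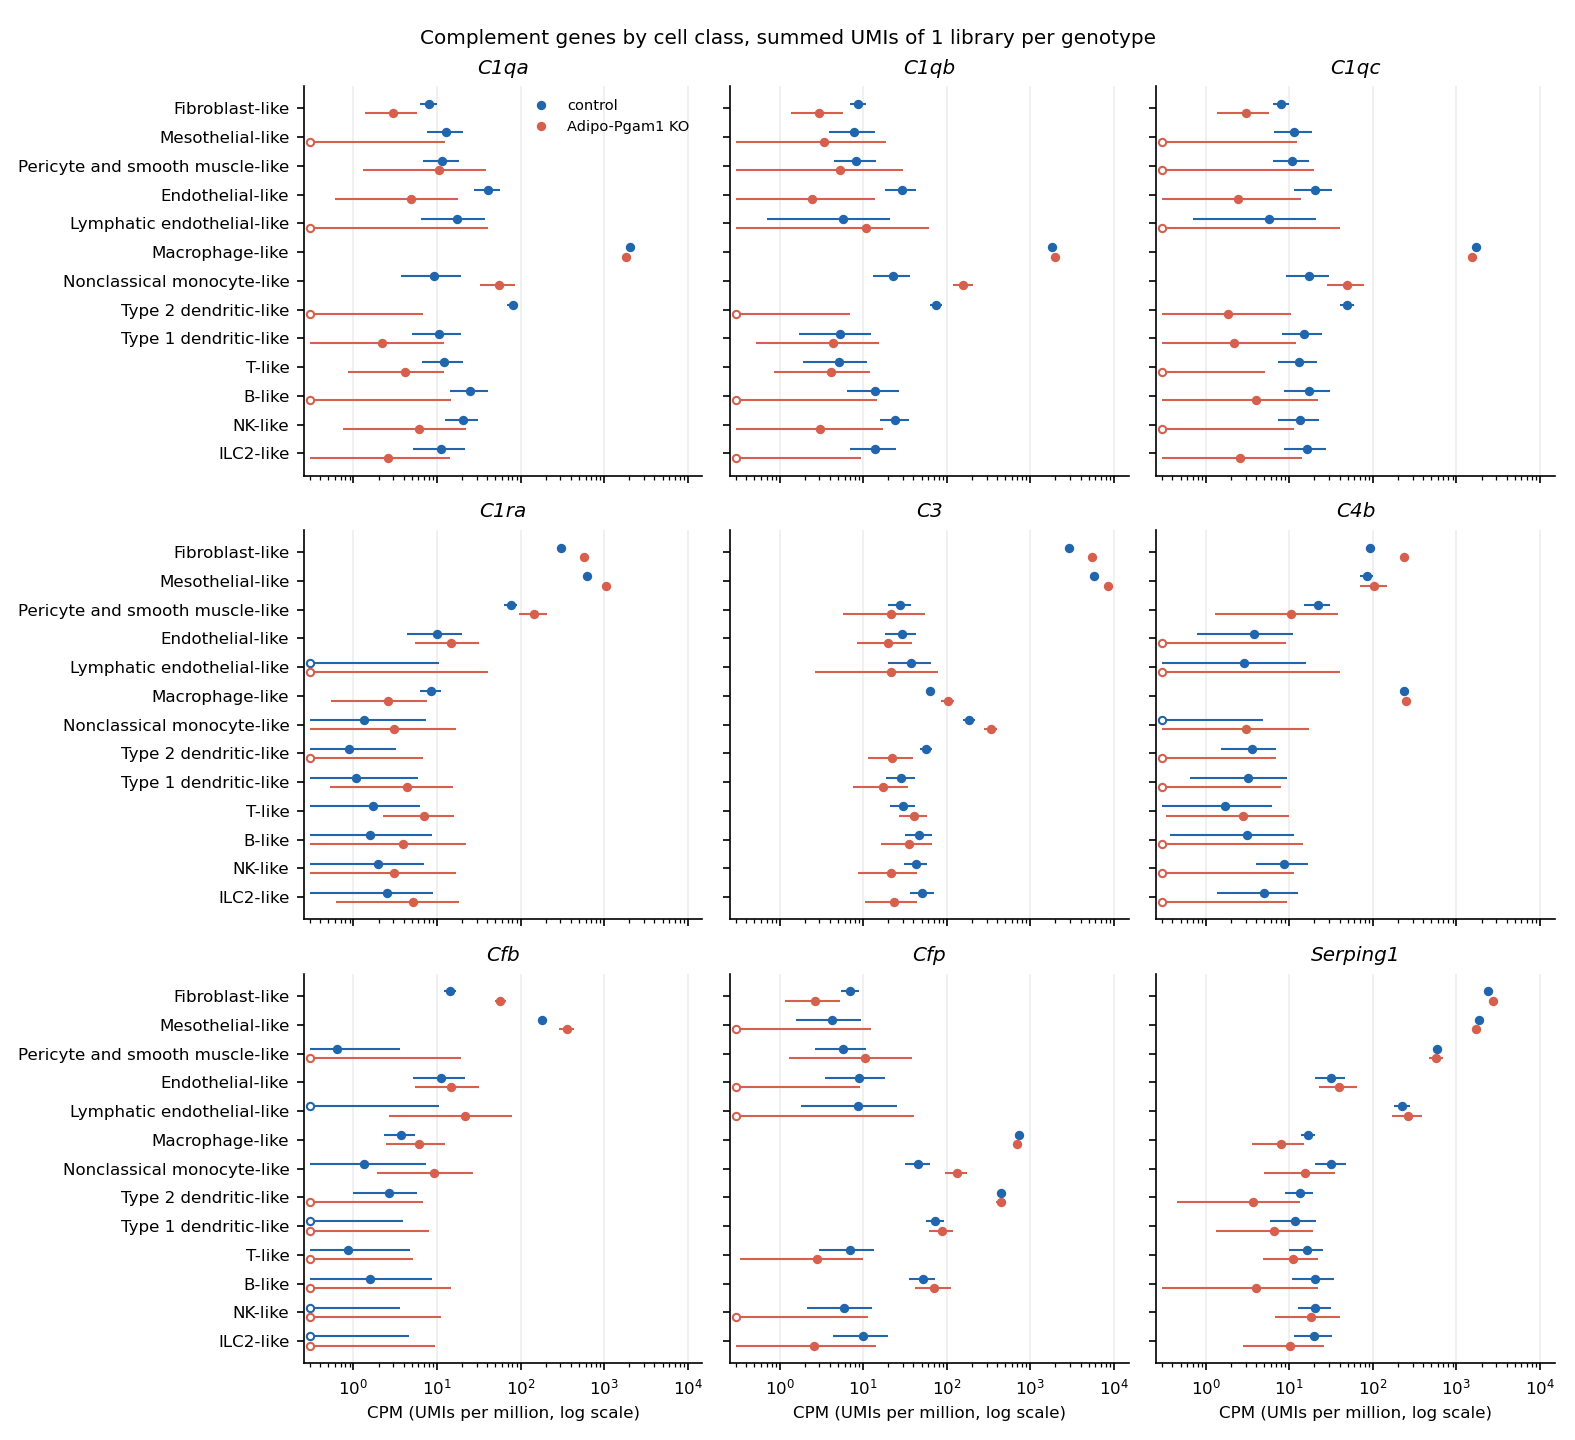
CPM (log axis) of each of the 9 genes in 13 cell classes, blue for the control and red for the Adipo-Pgam1 KO library, with exact Poisson 95% intervals; open circles at the left edge mark 0 UMIs. C1qa, C1qb, C1qc and Cfp stand highest in macrophage-like cells, and C1ra, C3, Cfb and Serping1 in fibroblast-like and mesothelial-like cells; C3 and C1ra are further right in red than in blue in both of the latter classes.

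The 3 chains of C1q were carried by the same class. In macrophage-like control cells C1qa was at 2023 CPM (1988 to 2059), C1qb at 1816 (1783 to 1850) and C1qc at 1739 (1707 to 1772). The next class was the type 2 dendritic-like cells at 80.7, 74.5 and 49.2 CPM, and every other named control class with at least 20 cells lay at or below 40.2 CPM. Among unnamed clusters, cluster 9, led by haemoglobin genes, held 90.2, 81.2 and 94.8 CPM of the 3 chain genes in 149 control cells and 0 in the KO library, and cluster 22, led by the cell cycle genes Mki67 and Top2a, held 64.3 CPM of C1qb in 28 control cells. Lymphocyte-like cells (the T, B and NK cell-like classes together), which should lack C1q, held 18.0 CPM of C1qa in the control against 3.84 in the KO library. These levels are taken as background, and their source was not tested. In the control 73.7% of macrophage-like cells had a C1qa UMI (median 8192 UMIs per cell), against 6.45% of lymphocyte-like cells (median 4268.5 UMIs). With each cell thinned to 2000 UMIs, which left out 48 and 26 of these cells, the shares were 69.5% and 2.53%.

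Macrophage-like cells were made up of 2 clusters that differed in C1q. Cluster 1, with 364 control and 33 KO cells, was led by Folr2, Pf4 and Cbr2, and cluster 2, with 290 and 63 cells, by Lyz1, Mmp12 and Ear2. The resident macrophage gene Folr2 was at 1123 CPM in control cells of cluster 1 and 14.9 CPM in cluster 2. C1qa was at 4246 CPM in cluster 1 and 524 CPM in cluster 2 of the control library, and at 5047 and 697 CPM in the KO library. In cluster 1 all 3 chains were detected together in 98.1% (control) and 97.0% (KO) of cells, and in cluster 2 in 34.1% and 36.5%. Within cluster 2 the level was uneven, since the median control cell had 0 CPM of C1qa and the 90th percentile was 2162 CPM.

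The proportions of the chains also differed between the clusters. Each transcript is counted once at its 3′ end whatever its length, but genes may be captured unequally, so shares are compared between clusters and not between chains. C1qb made up 29.2% (28.6% to 29.7%) of 28405 C1q UMIs in cluster 1 of the control and 47.0% (45.8% to 48.2%) of 6694 in cluster 2. In the KO library C1qb made up 31.6% (30.2% to 33.1%) of 4057 and 46.3% (44.1% to 48.5%) of 2057. The higher C1qb share in cluster 2 was thus present in both libraries, with intervals that did not overlap those of cluster 1. Between libraries, the C1qb shares within cluster 2 differed by less than their intervals. Within cluster 1 the share was higher in the KO library, and the intervals of the libraries did not overlap.

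**Figure D2:**
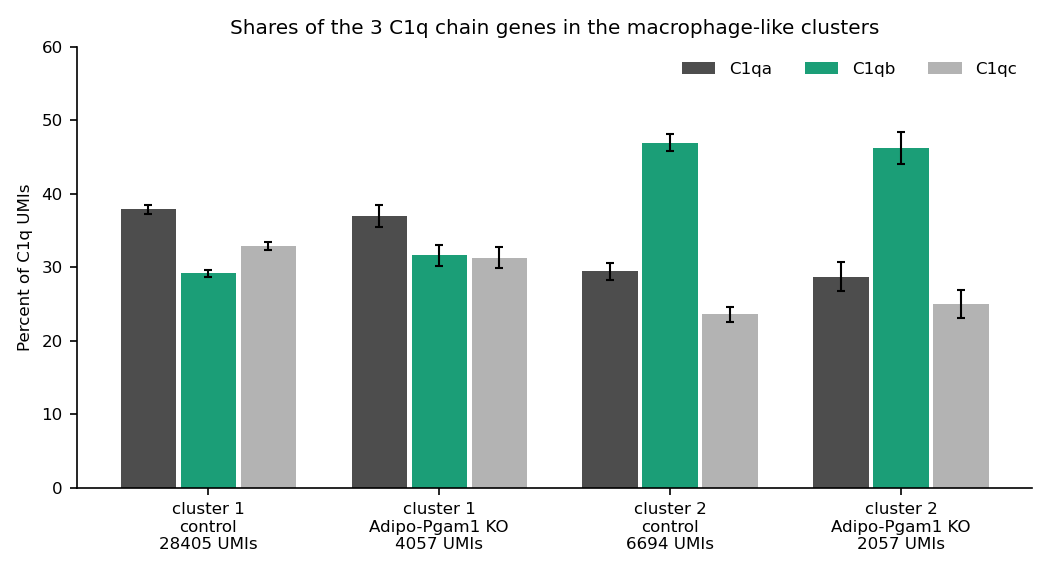
Percent of all C1q UMIs (vertical axis) from C1qa, C1qb and C1qc in both macrophage-like clusters of both libraries, with exact Clopper-Pearson 95% intervals as error bars. The green C1qb bars stand at 47.0% and 46.3% in cluster 2 and at 29.2% and 31.6% in cluster 1.

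Against the control, C1q was lower over all kept barcodes of the KO library. C1qa went from 439 CPM (432 to 446) to 223 (214 to 233), C1qb from 396 to 244 and C1qc from 376 to 189. The log2 ratios of KO to control were -0.97 (-1.04 to -0.91), -0.70 (-0.76 to -0.64) and -0.99 (-1.06 to -0.92). Macrophage-like cells were 18.1% of control and 10.2% of KO cells, and held 20.7% and 12.0% of the UMIs. When the control CPM of each cluster was weighted by the UMIs that the KO library had in that cluster, the C1qa level over all cells was 196 CPM, beside 436 CPM in the control against 228 CPM in the KO library as measured. For C1qb the weighted level was 193 CPM beside 392 and 249, and for C1qc 167 CPM beside 374 and 193.

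Within macrophage-like cells the C1q levels of the libraries were close. C1qa was at 2023 CPM in the control against 1827 (1750 to 1907) in the KO library, a log2 ratio of -0.15 (-0.21 to -0.08). C1qb was at 1816 and 1952 CPM, a log2 ratio of 0.10 (0.04 to 0.17), and C1qc at 1739 and 1558 CPM, a log2 ratio of -0.16 (-0.23 to -0.09). For C1qa and C1qc the direction differed by level of grouping, and cluster 1 held 55.7% of the class in the control against 34.4% in the KO library. Within cluster 1 the log2 ratio of C1qa was 0.25 (0.17 to 0.33), that of C1qb 0.40 (0.31 to 0.49) and that of C1qc 0.21 (0.12 to 0.29). Within cluster 2 they were 0.41 (0.28 to 0.54), 0.42 (0.32 to 0.53) and 0.53 (0.38 to 0.67). The summed level of all 3 chain genes was thus higher in the KO library within each cluster and by under 2-fold. In cluster 2 this rests on few cells, as 10 of 63 KO cells held 83.9% of the C1qa, 71.0% of the C1qb and 76.8% of the C1qc UMIs, and 38.1% of KO cells had a C1qa UMI against 41.0% of control cells.

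Properdin, of the alternative pathway, was led by the same class. Cfp in macrophage-like cells was at 724 CPM (704 to 746) in the control against 686 (639 to 736) in the KO library, a log2 ratio of -0.08 (-0.19 to 0.03). Unlike C1q, it was nearly even between the clusters, at 668 CPM in cluster 1 and 762 CPM in cluster 2 of the control. Within cluster 1 it was lower in the KO library, at 531 CPM (log2 -0.33, -0.58 to -0.10), with a UMI in 84.3% of control and 60.6% of 33 KO cells. Within cluster 2 it was at 741 CPM in the KO library (log2 -0.04, -0.17 to 0.08). Type 2 dendritic-like cells followed at 444 and 445 CPM in the libraries, with 16.5% of the control and 19.6% of the KO Cfp UMIs. Type 1 dendritic-like cells (73.1 CPM), B cell-like cells (51.5 CPM) and nonclassical monocyte-like cells (45.2 CPM) came next among named classes of the control, with overlapping intervals. The unnamed cluster 22 held 439 CPM in 28 control cells and 251 CPM in 12 KO cells. Over all kept barcodes Cfp was at 199.97 CPM (195 to 205) in the control against 126 (119 to 134) in the KO library, a log2 ratio of -0.66 (-0.75 to -0.57). The level over all cells at the cluster make-up of the KO library was 140 CPM, beside 200.5 in the control against 128 in the KO library as measured.

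C3, the protein at which the pathways meet, was the most abundant of the 9 transcripts over all kept barcodes. It was at 1225 CPM (1213 to 1237) in the control against 2051 (2022 to 2079) in the KO library, a log2 ratio of 0.74 (0.72 to 0.77). Mesothelial-like control cells had 5801 CPM (5676 to 5928), fibroblast-like cells 2944 (2910 to 2979) and nonclassical monocyte-like cells 186 (156 to 219). No other named control class with at least 20 cells exceeded 62.3 CPM, the unnamed cluster 9 had 1557 CPM, and the background in lymphocyte-like cells was 38.5 CPM.

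In fibroblast-like cells C3 was 1.84-fold higher in the KO library, at 5414 CPM (5331 to 5498) against 2944, a log2 ratio of 0.88 (0.85 to 0.91). The difference lay in the whole distribution of cells: the median fibroblast-like cell had 2463 CPM in the control against 4886 CPM in the KO library, and the 10th percentiles were 742 and 2056 CPM. With each cell thinned to 2000 UMIs, the mean was 5.76 C3 UMIs per control and 10.7 per KO cell. Nearly all of these cells had a C3 UMI, 97.7% of 778 control and 99.4% of 179 KO cells.

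C3 was higher in the KO library in both fibroblast-like clusters. Cluster 0, led by Inmt, Bmper and Agt, had 2723 and 5056 CPM in the control and KO libraries. Cluster 3, with the progenitor gene Pi16 at 817 CPM in the control against 30.8 in cluster 0, had 3341 and 6179 CPM. The log2 ratios were 0.89 (0.86 to 0.93) in cluster 0 and 0.89 (0.84 to 0.93) in cluster 3. Between the clusters C3 was lower in cluster 0 than in cluster 3 by a similar amount in the control (log2 -0.30, -0.33 to -0.26) and in the KO library (-0.29, -0.34 to -0.24).

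In mesothelial-like cells, with 105 control and 20 KO cells, C3 went from 5801 to 8581 CPM (8251 to 8921), a log2 ratio of 0.56 (0.50 to 0.63). With other choices of processing this ratio ranged from 0.055 to 0.62. The median cell had 5408 CPM in the control and 6572 CPM in the KO library, and 10 of the 20 KO cells held 88.7% of the C3 UMIs. In nonclassical monocyte-like cells C3 was at 186 CPM in the control against 336 (276 to 405) in the KO library, a log2 ratio of 0.85 (0.48 to 1.22). In macrophage-like cells C3 was at 62.3 and 103 CPM (log2 0.73, 0.42 to 1.03), but 10 of the 96 KO cells held 77.1% of the UMIs. With other choices of processing the ratio there ranged from -0.70 to 1.41. Pericyte and smooth muscle-like cells had 27.5 and 21.2 CPM, which is near the background.

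**Figure D3:**
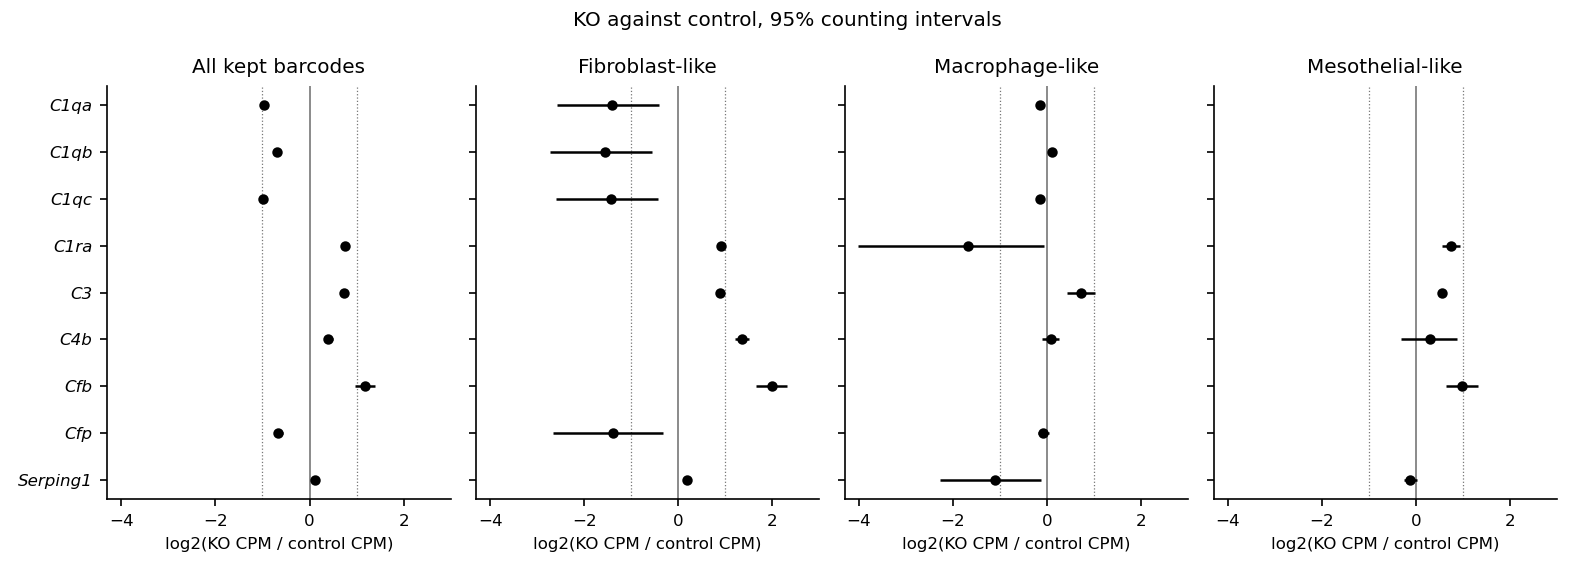
Log2 ratio of KO to control CPM (horizontal axis) for the 9 genes over all kept barcodes and in 3 cell classes, with exact conditional binomial 95% intervals; dotted lines mark 2-fold, and genes with under 50 UMIs in a class are left blank. C1ra, C3, C4b and Cfb lie right of 0 over all kept barcodes and in fibroblast-like cells, and the C1q chain genes lie within 0.2 of 0 in macrophage-like cells.

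C1ra, which encodes the first protease of the C1 complex, followed the stromal pattern. In the control it was at 621 CPM (580 to 663) in mesothelial-like, 304 (293 to 315) in fibroblast-like and 76.2 (63.1 to 91.1) in pericyte and smooth muscle-like cells, with intervals that did not overlap. In every other named control class with at least 20 cells it was at or below 10.1 CPM. The unnamed clusters 9 and 17, the latter with 83 control cells led by Ptn and Tenm2, had 153 and 98.1 CPM. The KO library had 1047 CPM (934 to 1170), 574 (547 to 601) and 143 (94.5 to 209) in the same classes. The log2 ratios were 0.75 (0.56 to 0.94), 0.92 (0.829 to 1.002) and 0.91 (0.25 to 1.53), each under 2-fold. The pericyte and smooth muscle-like class joined clusters 12 and 16, which held 127 and 90 cells in the control but 7 and 14 in the KO library, so its values compare different mixtures of these clusters. The partner protease gene C1s1 was at 1183 CPM in the control against 1098 in the KO library in fibroblast-like cells, a log2 ratio of -0.11 (-0.16 to -0.05). The C1s1 ratio was near the median log2 ratio of all genes in these cells (-0.11), and that of C1ra was higher.

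Serping1, the gene of the inhibitor that acts on both proteases, differed little between libraries. In fibroblast-like cells it was at 2397 CPM (2366 to 2428) in the control against 2726 (2667 to 2786) in the KO library, a log2 ratio of 0.19 (0.15 to 0.22). In mesothelial-like cells it was at 1846 and 1697 CPM, a log2 ratio of -0.12 (-0.26 to 0.02). Pericyte and smooth muscle-like cells had 593 and 568 CPM, and lymphatic endothelial-like cells 225 CPM in the control. No other named control class with at least 20 cells exceeded 31.9 CPM, and the unnamed clusters 9 and 17 had 1200 and 734 CPM. Of the 9 genes it had the smallest log2 ratio over all kept barcodes, at 0.11 (0.08 to 0.14), from 910 to 981 CPM.

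C4b, cleaved by the C1 complex, was found in several classes. Macrophage-like control cells had 238 CPM (226 to 250), fibroblast-like cells 93.3 (87.3 to 99.6) and mesothelial-like cells 84.8 (70.3 to 101), and the intervals of the last 2 overlapped. The highest level was in Schwann cell-like cells, at 1296 CPM (861 to 1874) in 6 control cells and 978 (669 to 1380) in 5 KO cells, from 28 and 32 UMIs. Among macrophage-like cells C4b in the control was mostly in the Folr2-rich cluster, with 583 CPM in cluster 1 and 4.79 CPM in cluster 2, a background-like level beside the 4.59 CPM of lymphocyte-like cells. Even there it was uneven: the median cell of cluster 1 had 158 CPM and the 90th percentile 1833 CPM.

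In fibroblast-like cells C4b was 2.55-fold higher in the KO library, at 238 CPM (221 to 256) against 93.3, a log2 ratio of 1.35 (1.209 to 1.497). The share of these cells with a C4b UMI was 35.9% (32.5% to 39.3%) in the control against 60.9% (53.3% to 68.1%) in the KO library. Thinned to 2000 UMIs, it was 11.8% (9.65% to 14.3%) and 24.3% (18.2% to 31.3%), and in lymphocyte-like cells 1.01% and 0%. In KO cells 10 of 179 held 45.3% of the C4b UMIs, and without the 10 highest of the 179 KO and the 778 control cells the log2 ratio was 0.97. The log2 ratio was 1.48 (1.31 to 1.65) in cluster 0 and 1.01 (0.73 to 1.28) in cluster 3. In macrophage-like cells C4b was at 238 and 250 CPM, a log2 ratio of 0.08 (-0.11 to 0.26), with 93.4% of the KO UMIs in 10 of 96 cells. Within cluster 1 it was at 583 and 487 CPM, a log2 ratio of -0.26 (-0.52 to -0.01). The KO value of cluster 2, 167 CPM against 4.79 in the control, came from 142 UMIs, of which 2 cells held 138. Over all kept barcodes C4b was at 90.7 CPM (87.5 to 94.0) and 119.7 (112.9 to 126.8), a log2 ratio of 0.40 (0.30 to 0.50), but -0.18 with each cell weighted the same and -0.11 without the 10 highest cells of each library.

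Cfb, the protease subunit of the alternative pathway, had the largest ratio. Over all kept barcodes it was at 13.9 CPM (12.7 to 15.3) in the control against 31.5 (28.1 to 35.3) in the KO library, a log2 ratio of 1.18 (0.96 to 1.39). In fibroblast-like cells it was at 14.4 CPM (12.1 to 17.0) and 57.0 (48.8 to 66.2), which is 3.95-fold higher in the KO library (log2 1.98, 1.65 to 2.32). Both fibroblast-like clusters showed it, with 16.3 and 54.8 CPM in cluster 0 and 11.1 and 61.6 CPM in cluster 3. The share of fibroblast-like cells with a Cfb UMI was 13.8% (11.4% to 16.4%) in the control against 45.3% (37.8% to 52.8%) in the KO library, and after thinning 3.52% (2.33% to 5.07%) and 8.47% (4.82% to 13.6%). In lymphocyte-like cells it was 0.323% and 0%.

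Mesothelial-like cells had the highest Cfb level, 181 CPM (159 to 205) in the control against 357 (292 to 432) in the KO library, a log2 ratio of 0.98 (0.64 to 1.31). In the KO library 10 of the 20 cells held 87.7% of these UMIs, and the log2 ratio was 1.30 with each cell weighted the same. It was 0.08 in a single random draw of 2000 UMIs per cell. In the separate draw used for shares of cells, the mean was 0.253 Cfb UMIs in 95 control and 0.706 in 17 KO cells. The thinned value thus depended on the draw. Of these cells, 71.4% in the control against 80.0% in the KO library carried a Cfb UMI. The class with most Cfb UMIs was mesothelial-like in the control (57.5%) and fibroblast-like in the KO library (55.9%).

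**Figure D4:**
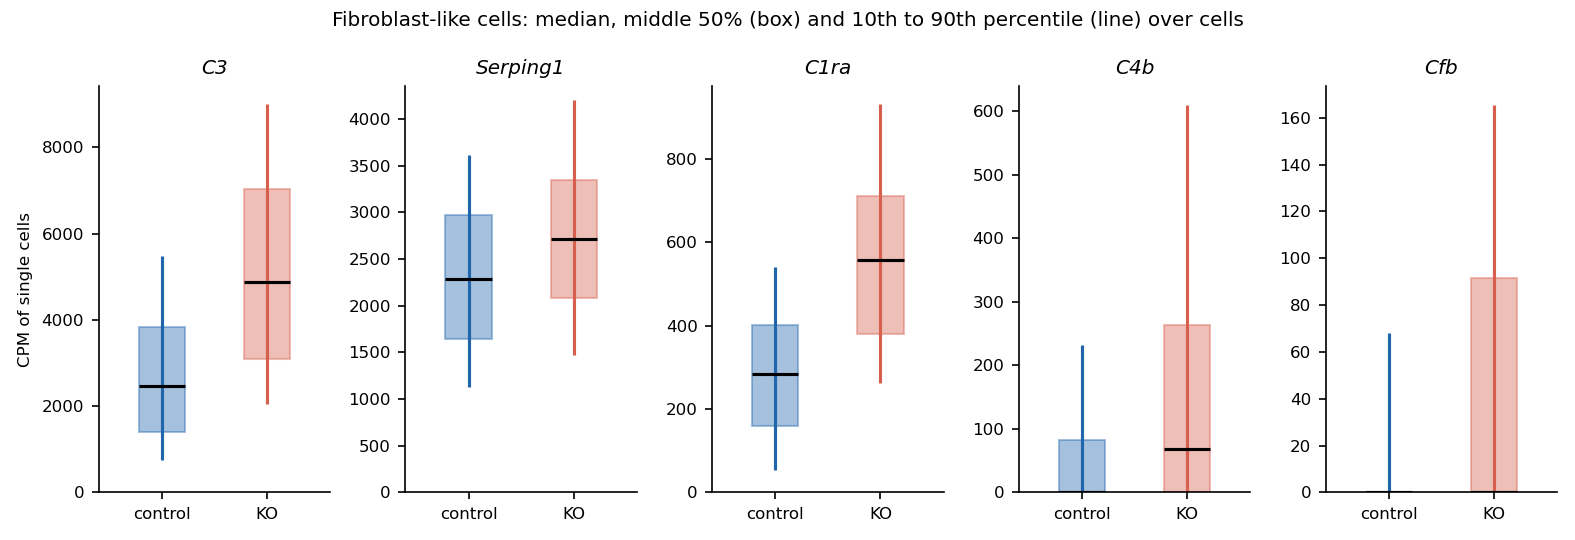
CPM of single fibroblast-like cells (vertical axis, from 0) for 5 genes in 778 control and 179 KO cells; the black line is the median, the box the middle 50% of cells and the thin line the 10th to 90th percentile. The median is 2463 and 4886 CPM for C3 and 283 and 558 CPM for C1ra, 2290 and 2713 CPM for Serping1, and 0 for Cfb in both libraries.

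Of the 9 genes, 1 (Cfb) was at least 2-fold higher over all kept barcodes and 0 at least 2-fold lower, where 2.35% of 13720 genes with at least 50 UMIs were higher and 2.18% lower by that size. The median log2 ratio of the 9 genes was 0.11, and that of all genes -0.08. Because the 9 genes were chosen with earlier results of these data known, the counts given here do not test them as a set. In fibroblast-like cells 2 genes (C4b and Cfb) were at least 2-fold higher, beside 1.16% of 10538 genes, and 4 (C1qa, C1qb, C1qc and Cfp) at least 2-fold lower, beside 1.67%. The 4 lower genes were at 6.998 to 8.77 CPM in fibroblast-like control cells, where T cell-like and NK cell-like cells held 5.17 to 24.3 CPM of the same genes, and the macrophage markers summed to 79.7 and 44.3 CPM in these cells, with 10 of 10 and 7 of 10 detected, and their part in the result was not tested. They are given as background and not as expression of these cells. In macrophage-like cells 0 genes were higher and 2 (C1ra and Serping1, at 8.42 and 16.8 CPM in the control) lower, beside 1.45% and 4.85% of 8803 genes. The fibroblast markers summed to 364 CPM in macrophage-like control cells and 171 CPM in KO cells, with 8 of 8 detected in each, and their part in this result was not tested. In mesothelial-like cells 0 of 5 measured genes passed 2-fold in either direction, beside 1.24% and 4.21% of 5323 genes.

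Setting make-up beside level, the genes fell into 2 sets. With control levels at the cluster make-up of the KO library, C3 over all cells would be at 1156 CPM, against 1253 in the control against 2057 in the KO library as measured, and C1ra at 124 CPM, against 136 and 228. For Cfb the values were 11.7, 14.6 and 32.2 CPM, and for C4b 60.7, 89.3 and 117 CPM. For Serping1 they were 879, 924 and 986 CPM. For these 5 genes the make-up alone gave a lower level than the control, and the measured KO level was higher than both. For the C1q chains and Cfp the make-up alone gave a level nearer to the KO value than to the control value.

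**Figure D5:**
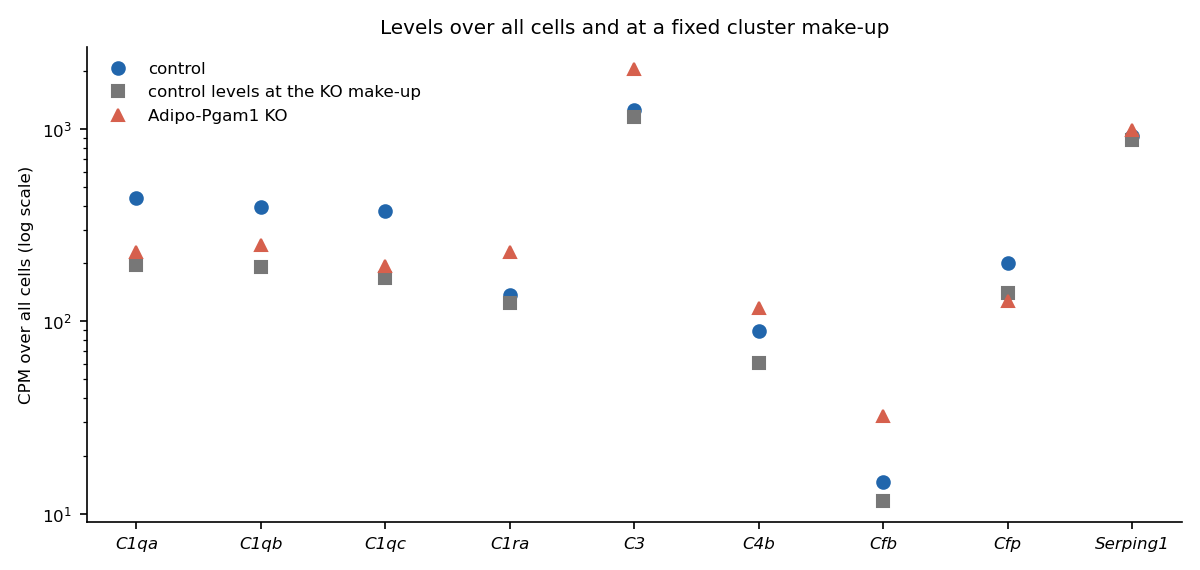
CPM over all cells (log axis) of the 9 genes in the control library (circles), at control levels with the cluster make-up of the KO library (squares), and in the Adipo-Pgam1 KO library (triangles). Squares lie near triangles for C1qa, C1qb, C1qc and Cfp, and near circles for C3, C1ra and Serping1.

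Of the other 45 complement genes counted, 25 had at least 50 UMIs in control cells. Of the 12 further genes that start the classical and lectin pathways, 4 did so: C1s1, C1rl, the ficolin gene Fcna and the collectin gene Colec11. Fcna had 96.7% of its UMIs in macrophage-like cells, at 327 CPM in the control against 100.4 in the KO library (log2 -1.71, -1.99 to -1.43), and within cluster 1 at 804 and 356 CPM (log2 -1.17, -1.47 to -0.89). Colec11 had 92.1% of its UMIs in pericyte and smooth muscle-like cells, with Colec11 among the leading genes of cluster 16. Mbl1, Mbl2, Masp1 and Colec10 had 0 UMIs in the 30328767 UMIs of control cells.

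The C3 convertase gene C2 was mesothelial, with 68.3% of its control UMIs in that class. It was at 1087 and 963 CPM there in the control and KO libraries, but at 50.7 and 144 CPM in fibroblast-like cells, a log2 ratio of 1.51 (1.32 to 1.70). Of the 7 terminal pathway genes 1 had at least 50 UMIs, C7, which had 84.5% of its UMIs in fibroblast-like cells at 200.1 and 457 CPM, a log2 ratio of 1.19 (1.09 to 1.29). The adipsin gene Cfd had 130 control and 21 KO UMIs over all cells.

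Among the fluid-phase regulators Vtn, which blocks the membrane pore, was at 99.5 and 184 CPM in fibroblast-like cells (log2 0.89, 0.73 to 1.04). In cluster 0 it was at 149 and 264 CPM (log2 0.83, 0.67 to 0.98). Cluster 3 held 11.1 and 12.5 CPM of Vtn (log2 0.18, -0.89 to 1.15). Clu, another inhibitor of the pore, had 76.2% of its UMIs in mesothelial-like cells at 1598 and 1714 CPM. Of 8 membrane regulators 6 were measured, and Cd55, which speeds the decay of convertases, was at 241 and 181 CPM in fibroblast-like cells (log2 -0.41, -0.55 to -0.28). Within cluster 0 the log2 ratio of Cd55 was -0.21 (-0.48 to 0.04), and within cluster 3 -0.35 (-0.51 to -0.19). Both are smaller in size than the class value.

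All 9 receptor genes were measured. C3ar1 and C5ar1, the receptors of the fragments C3a and C5a, had 96.0% and 93.7% of their UMIs in macrophage-like cells, at 252 and 189 CPM and at 237 and 230 CPM in the control and KO libraries. Within clusters 1 and 2 the log2 ratios of C3ar1 were -0.13 (-0.42 to 0.15) and -0.21 (-0.53 to 0.10), and those of C5ar1 0.08 (-0.19 to 0.34) and 0.47 (0.18 to 0.76). Cr2, the B cell receptor for C3 fragments, had 92.2% of its UMIs in B cell-like cells at 315 and 107 CPM, from 202 and 27 UMIs. In fibroblast-like cells 12 of the 45 genes had at least 50 UMIs over both libraries. Of these, 3 (C2, C7 and Cd59a) were at least 2-fold higher and 1 (Itgb2, at 4.70 and 1.67 CPM) lower in the KO library. Over all genes 1.16% were higher and 1.67% lower. The median log2 ratio was 0.11 for the 12 genes, beside -0.11 over all genes. Because this list too was chosen with earlier results known, these counts do not test it as a set.

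The genes whose control levels followed each member most closely were found over the 15 named classes, among 12671 genes with at least 50 UMIs outside the complement lists, by Pearson correlation of log2(CPM + 1). All points come from 1 library, and classes differ in depth. Each class counted the same, also the Schwann cell-like and neutrophil-like classes with 6 and 7 control cells. How far the order of genes rests on these small classes was not tested. For C1qa they were Ltc4s (r = 0.92), Cbr2 (0.91) and Fcrls (0.89), for C1qb Fcrls (0.94), Ltc4s (0.93) and F13a1 (0.93), and for C1qc 9530036M11Rik (0.85), Ms4a7 (0.84) and Pepd (0.83). Ms4a7 was one of the macrophage markers used to name classes. For C1ra they were Pcolce (0.96), Hoxc8 (0.96) and Nnmt (0.95), and for Serping1 Rbms3 (0.94), Col3a1 (0.93) and Col1a2 (0.92), of which the collagens named fibroblast-like cells. For C3 they were Wt1 (0.89), which named mesothelial-like cells, Cope (0.88) and Ptgis (0.88). For C4b they were Lpar1 (0.93), Ppp1r9a (0.92) and Scamp5 (0.91), for Cfb Myrf (0.93), AI661453 (0.93) and Tnfrsf11b (0.93), and for Cfp Wfdc17 (0.92), Unc93b1 (0.90) and 5031439G07Rik (0.87).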

How the data were processed

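Single-cell RNA sequencing of the gWAT SVF was measured in 1 control and 1 Adipo-Pgam1 KO library. The deposited values are raw UMI counts per gene and barcode, made by the authors with Cell Ranger 3.0.1 on mm10 (the submitters' processing notes also name Seurat 3.1.5 and R 4.0.1), with no normalization. Barcodes with fewer than 500 genes or over 10% mitochondrial UMIs were left out. The barcodes with the highest Scrublet doublet scores were then removed, at a preset rate that rose with the number of barcodes in a library. This took 265 of 3881 control and 21 of 958 KO barcodes. Counts were normalized to 10000 per cell for clustering only (scanpy 1.11.5, 2000 variable genes, 30 components, Leiden resolution 0.5), without the complement genes and Pgam1. Clusters were named from marker lists, by a rule set partly after the clusters were seen, and unclear clusters stayed unnamed. Counts were summed per library and class and divided by all UMIs of the class. Intervals are exact at 95% (Poisson for CPM, conditional binomial for ratios, Clopper-Pearson for shares) and take in counting error alone. As each genotype had 1 library, genotypes could not be tested. A ratio against 0 UMIs is a bound computed with 3 UMIs. Genes with at least 50 UMIs over both libraries enter the counts past 2-fold. All 9 members are named with their values, other complement genes by role where they had 50 UMIs or more in control cells, and for each member the 3 genes of most similar pattern. The members and lists were chosen with earlier results of these data known. C4a is not used here, and not every gene of the list by role is reported here. The scripts were tested on simulated data. Alternatives covered filters, doublets, resolution, seed, TMM factors (edgeR 4.0.16), equal weights per cell, thinning and the minimum count. Python 3.11.15, scipy 1.17.1 and R 4.3.3 were used.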

Additional observations from a re-analysis of the deposited data

Results flagged for a closer look

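C1q stood in opposite directions in a pair of myeloid classes, a difference between classes that was not tested. In nonclassical monocyte-like cells (114 control and 26 KO cells) C1qa was higher in the KO library by a log2 ratio of 2.56, C1qb by 2.81 and C1qc by 1.501. The KO values came from 18, 52 and 16 UMIs in 4 to 5 cells. The macrophage markers summed to 12780 CPM in the control and 21923 CPM in the KO library there, with 10 and 8 of 10 markers detected, and their part in the result was not tested.

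In type 2 dendritic-like cells (185 and 37 cells) C1qa and C1qb had 0 UMIs in the KO library, which puts their log2 ratios at or below -3.85 and -3.74, and C1qc had 1 UMI, a log2 ratio of -4.72 (-10.04 to -2.22). In the control 2 cells held 140 of the 182 C1qa UMIs. Their macrophage markers were at 8579 CPM, beside 1704 CPM in the other cells of the class, where C1qa was at 19.0 CPM.

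Cfp was higher in the KO library in nonclassical monocyte-like cells (log2 1.54, 0.86 to 2.23) and lower in fibroblast-like cells (log2 -1.39, -2.66 to -0.33), where it was at the background level. This difference was not tested either.

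An unnamed cluster of 149 control and 52 KO cells, led by haemoglobin genes and with a median of 1914 and 2184.5 UMIs, lay outside the comparisons. C1ra was at 153 and 313 CPM there (log2 1.03), and C3 at 1557 and 3263 CPM (log2 1.07). Its nearest marker list was that of fibroblasts, and it made up 4.12% of control and 5.55% of KO cells.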

How the results depend on the processing

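No paired analysis was possible because there was 1 library per genotype. In all, 48 values were recomputed under up to 13 alternatives, of which 2 were chosen after seeing the data; 31 of the values were log2 ratios, with 313 recomputations. The sign turned in 28 recomputations, the value crossed the 2-fold line in 33, and 238 stayed within 0.3. Of 21 ratios of at least 0.5 in size, 8 of 207 recomputations had the other sign. In fibroblast-like cells the range was 0.74 to 0.99 for C1ra, 0.97 to 1.53 for C4b and 1.92 to 2.22 for Cfb. These ranges take in a single thinning draw. In the separate draw used for shares of cells, mean Cfb UMIs were 0.0352 per control and 0.0847 per KO cell. That is a smaller ratio than any in the Cfb range.

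Background-level values turned positive in a single random draw of 2000 UMIs per cell. They were 1.12 for C1qa, 0.0019 for C1qb and 0.70 for Cfp in fibroblast-like cells. In macrophage-like cells they were 0.26 for C1ra and 0.11 for Serping1. The separate draw used for shares of cells had lower means in KO cells for each. Control and KO means were 0.0195 and 0.0113 UMIs for C1qa, 0.0182 and 0.00565 for C1qb, and 0.0104 and 0.00565 for Cfp. They were 0.0281 and 0 for C1ra, and 0.0264 and 0.0125 for Serping1. These signs thus depended on the draw. With each cell weighted the same, Serping1 in macrophage-like cells was 0.54.

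C1qa in macrophage-like cells (-0.15) was 0.19 under a looser filter on genes and mitochondrial UMIs and -0.0035 under a stricter one. At resolution 0.3 it was 0.25, the same value as within cluster 1 alone. The cells compared at that setting were thus not those of the main class. The ratio was -0.025 at resolution 1.0, -0.060 with TMM factors, -0.32 with equal weights and -0.24 thinned. Without the 10 highest cells, which takes 10 of 96 KO cells, it was -0.59. C3 in fibroblast-like cells (0.88) was 0.84 and 0.81 at the looser and stricter filters, 0.96 with TMM factors, 0.93 with equal weights and 0.83 without the 10 highest cells.

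Genes at least 2-fold higher in fibroblast-like cells numbered 122, but 56 after thinning and 233 with a minimum of 20 UMIs, and genes lower 176, but 394 with that minimum. In the single thinning draw of these recomputations, 1 of the 9 genes was higher and 0 lower in fibroblast-like cells. Over all kept barcodes 2 were lower after thinning and 2 with equal weights, against 0, where genes lower numbered 395 after thinning and 489 with equal weights, against 299. Causes were not tested, apart from the smaller number of UMIs or cells that thinning and leaving out cells bring by construction.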
